A study of Mus musculus with 50 samples.

Results

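The A20, TNIP and cIAP ubiquitin brakes were followed here as 10 genes: Tnfaip3, Tnip1, Tnip2, Tnip3, Cyld, Otulin, Traf1, Traf2, Birc2 and Birc3. They were chosen by symbol, and each symbol matched exactly 1 of the 53700 genes in the count tables. All 10 were among the 16696 genes that passed the filter of at least 1 CPM (counts-per-million of a TMM-scaled library) in at least 3 mice. Tnip3 reached that level in LPS-injected mice only, and Traf1 reached it in 1 PBS-injected mouse beside LPS-injected mice, so both genes passed the filter through the groups in which they were high.

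When a TNF or Toll-like receptor is engaged, adaptors recruit ubiquitin ligases, and the ubiquitin chains they build serve as a scaffold for the kinases that release NF-kB. A20, encoded by Tnfaip3, dampens this signal by editing and binding these chains, and the TNIP proteins, also called ABINs, bind both ubiquitin and A20. CYLD removes chains from signalling complexes, and OTULIN takes apart the linear chains. TRAF1 and TRAF2 are adaptors of the TNF receptor complex, and TRAF2 brings in the cellular inhibitors of apoptosis cIAP1 (Birc2) and cIAP2 (Birc3), which are ubiquitin ligases. Several of these genes are themselves transcribed in response to NF-kB. Those of them that dampen the signal, such as Tnfaip3, are thereby part of a negative feedback loop in macrophages and microglia.

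RNA came from hippocampal microglia, the resident macrophages of the brain, sorted as CD45int CD11b+ cells from male C57BL/6J mice, with 1 library per mouse. Early-life stress (ELS) was limited bedding and nesting material from P2 to P9, and controls (CTR) had standard nests. Whole litters were assigned to a condition at random. The 12 P9-CTR and 13 P9-ELS mice were killed at postnatal day 9 without an injection. At P200 mice received an intraperitoneal injection and were killed 3 hours later. It held PBS in 7 CTR mice (P200-CTR-PBS) and 6 ELS mice (P200-ELS-PBS), and the bacterial endotoxin LPS at 1 mg/kg in 7 CTR mice (P200-CTR-LPS) and 5 ELS mice (P200-ELS-LPS). Single mice are named by their label, such as P200_1.1_CTR_PBS, in which the number before the point was taken to be the nest. The P200 mice of each group came from 5 such nests, the P9-CTR mice from 5 and the P9-ELS mice from 4. Age is bound up with handling, since P9 mice were not injected and their cells skipped the Percoll gradient used at P200, and these cannot be told apart.

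Libraries held between 5152838 and 42231258 counts per mouse, and between 12482 and 21100 genes had a count. The libraries of mice P200_1.1_CTR_PBS and P9_19.3_ELS stood apart with 12854 and 12482 detected genes, and P9_19.2_ELS had 15731. Summed CPM of 10 microglia markers was between 39286 and 91083 in every mouse. The cells were measured in bulk, so a fall in the number of cells that express a gene and less RNA per cell cannot be told apart.

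In the GENCODE vM39 annotation of GRCm39, the build the authors mapped to, all 10 genes are protein coding. Tnfaip3 lies at chr10:18874201-18891405, Tnip1 at chr11:54796320-54854661, Tnip2 at chr5:34651772-34671388 and Tnip3 at chr6:65502295-65611024. Cyld lies at chr8:89423468-89478574 and Otulin at chr15:27542721-27631297. Traf1 and Traf2 are both on chromosome 2, at chr2:34831762-34851837 and chr2:25406097-25436987. Birc2 and Birc3 are neighbours on chromosome 9, at chr9:7818227-7837120 and chr9:7845790-7873229. Tnip3 and Cyld are on the plus strand and the other 8 on the minus strand. Tnip1, Cyld, Otulin, Traf1 and Traf2 overlap another annotated gene on the opposite strand, among them Gpx3 for Tnip1 and Ank for Otulin, and without a stated strand setting reads from the shared stretches could not be assigned.

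All 10 genes had promoters in the RefSeq table of build GRCm38.p6, 12 windows in all because Tnfaip3 and Birc2 have 2 starts each. A window holds 250 bases before and 50 bases from the start, and was searched on both strands for the NF-kB-like motifs GGGANNTTC and GGGNNNTTC, of which the first is a special case of the second. GGGNNNTTC was found in 5 of the 12 windows, belonging to Tnfaip3, Tnip1, Cyld and Traf2, against 14.0% of all 32851 promoters. GGGANNTTC was found in 1 window, that of Cyld, against 3.94% of all promoters. Below are 4 promoters that set the motif beside the LPS response described later: Tnfaip3 and Tnip1, which rose and hold matches, Tnip3, which rose and holds none, and Cyld, which was not called and holds matches. Capitals mark matches to GGGNNNTTC on either strand, and the sequences run 5′ to 3′ on the strand of the gene. Only these motifs were searched, so a window without a match may hold an NF-kB-like site of another form. The Tnip3 window does hold the stretch gggaaatccc, which is NF-kB-like but matches neither motif. Its lack of a match is therefore not a lack of such a site. The windows are chr10:19015361-19015660 for the first start of Tnfaip3, chr11:54962891-54963190 for Tnip1, chr6:65590148-65590447 for Tnip3 and chr8:88696778-88697077 for Cyld.
Tnfaip3: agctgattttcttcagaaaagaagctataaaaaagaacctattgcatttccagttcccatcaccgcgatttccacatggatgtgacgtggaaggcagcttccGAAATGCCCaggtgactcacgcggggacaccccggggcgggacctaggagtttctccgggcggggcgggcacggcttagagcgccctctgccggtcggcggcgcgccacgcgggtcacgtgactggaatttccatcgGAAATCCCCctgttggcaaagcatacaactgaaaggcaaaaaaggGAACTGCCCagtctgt
Tnip1: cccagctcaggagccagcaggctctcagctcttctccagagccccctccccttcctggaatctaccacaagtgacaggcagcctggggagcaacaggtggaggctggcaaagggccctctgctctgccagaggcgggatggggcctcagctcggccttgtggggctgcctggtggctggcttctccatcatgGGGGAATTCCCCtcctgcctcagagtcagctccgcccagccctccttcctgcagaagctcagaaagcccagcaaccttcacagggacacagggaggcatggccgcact
Tnip3: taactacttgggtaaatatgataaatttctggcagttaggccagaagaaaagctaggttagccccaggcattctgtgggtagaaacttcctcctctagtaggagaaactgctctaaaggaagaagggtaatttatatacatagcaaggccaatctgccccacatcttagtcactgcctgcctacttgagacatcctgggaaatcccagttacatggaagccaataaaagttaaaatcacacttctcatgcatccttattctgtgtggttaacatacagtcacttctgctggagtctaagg
Cyld: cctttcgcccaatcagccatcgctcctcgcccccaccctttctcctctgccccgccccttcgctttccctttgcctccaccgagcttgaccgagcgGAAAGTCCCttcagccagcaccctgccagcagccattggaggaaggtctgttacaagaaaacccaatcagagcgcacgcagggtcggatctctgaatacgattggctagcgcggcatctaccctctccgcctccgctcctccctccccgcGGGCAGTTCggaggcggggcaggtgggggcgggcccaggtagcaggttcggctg
The Tnfaip3 matches begin 148 and 11 bases before the start and 34 bases after it. The Tnip1 matches begin 58 and 55 bases before the start and overlap each other on opposite strands. The Cyld matches begin 154 and 4 bases before the start. Tnip2, Birc3 and Traf1, of which Tnip2 and Birc3 rose in both conditions after LPS, hold neither motif in their windows, and neither do Otulin and Birc2.

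In unchallenged adult microglia the 10 genes had unequal levels. Per kilobase of exon, in P200-CTR-PBS mice, Traf2 had 7.87 ± 2.22 CPM per kb (SD, n = 7), Birc2 7.69 ± 1.67, Birc3 6.96 ± 3.54, Tnip2 5.73 ± 2.82 and Cyld 5.60 ± 1.01. The ranges of mean ± SD of these 5 genes overlapped one another. Tnfaip3 followed at 3.34 ± 1.43 CPM per kb and Tnip1 at 1.54 ± 0.318, and Otulin was far lower at 0.291 ± 0.156. Traf1 had 0.0501 ± 0.0812 CPM per kb, with a count in 3 of 7 mice, and Tnip3 had 1 count in all 7 mice together. After LPS the order per kilobase in CTR mice was led by Birc3 at 43.3 ± 6.46 CPM per kb, Tnfaip3 at 39.6 ± 22.7 and Tnip2 at 37.3 ± 8.33, whose ranges of mean ± SD overlapped one another, and Traf2 came next at 9.45 ± 1.27.

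**Figure D1:**
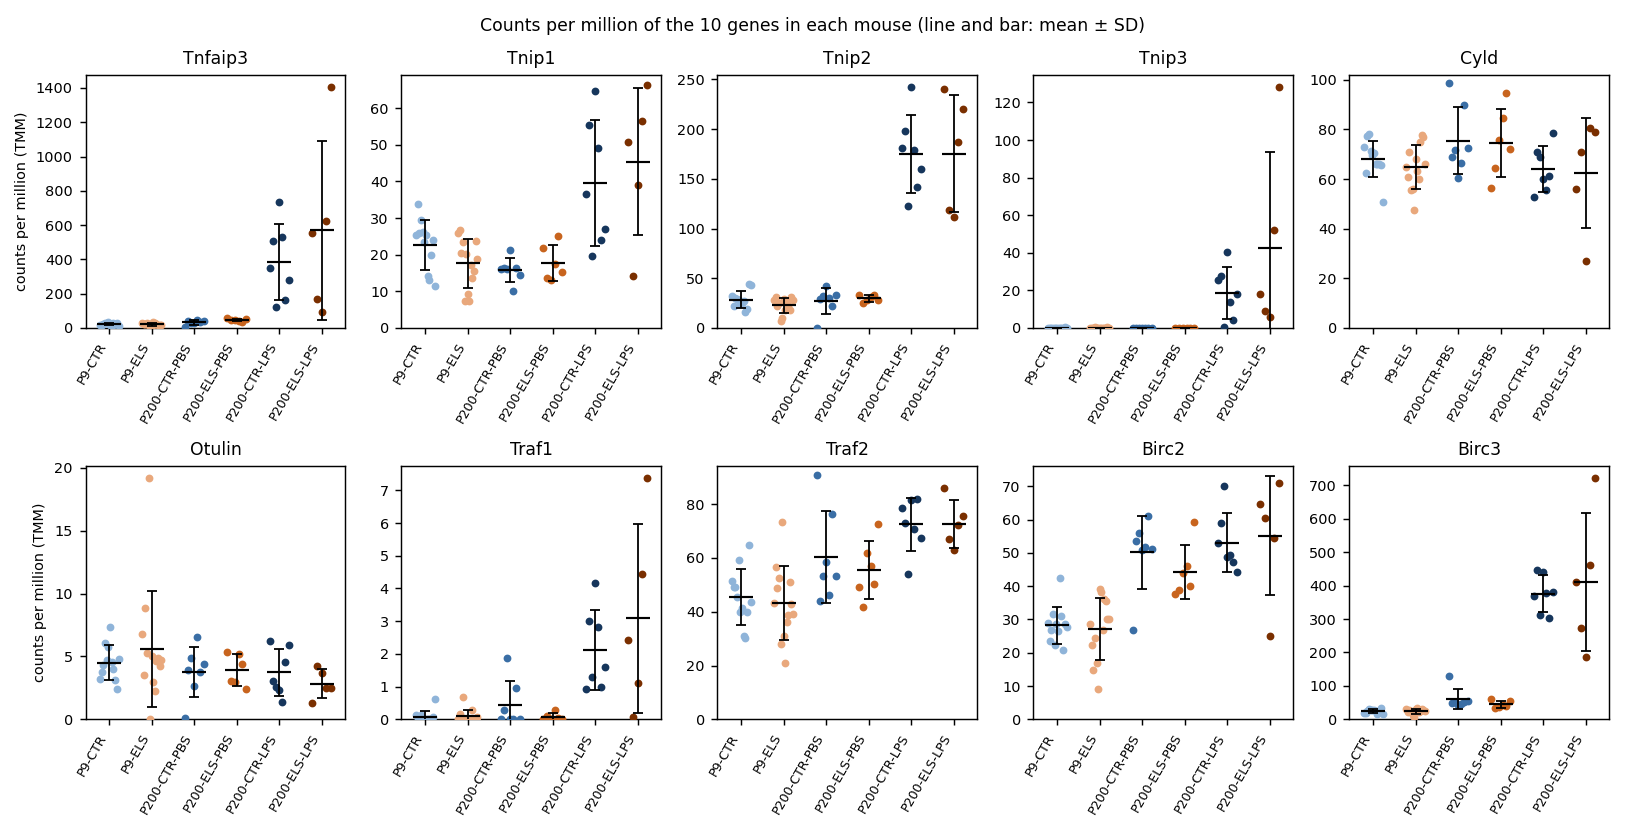
Each panel plots 1 gene, with CPM on a linear vertical axis from 0, a point per mouse in the 6 groups, and a line and bar for the mean and SD. Tnfaip3, Tnip2 and Birc3 stand above all other groups in the LPS-injected mice, Tnip3 is near 0 outside them, and Cyld and Otulin show no such step.

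The first comparison was LPS against PBS at P200, which asks how microglia answer a systemic inflammatory challenge. A20 and its TNIP partners rose together with cIAP2, while CYLD, OTULIN, TRAF2 and cIAP1 transcripts were not called. In CTR mice 5 of the 10 genes rose, namely Tnfaip3, Tnip1, Tnip2, Tnip3 and Birc3, against 8.73% of all 16696 genes tested. In ELS mice 6 rose, the same 5 and Traf1, against 7.4% of all genes. Tnip3 and Traf1 passed the filter through the groups in which they were high, so their place in these counts is a description only. None of the 10 fell in either condition, against 6.2% of genes in CTR and 4.94% in ELS mice. A gene was called when edgeR's quasi-likelihood test gave a Benjamini-Hochberg adjusted p under 0.05 and the absolute log2 fold change was above 0.1. Members are given by their median log2 fold change as a description, which was 1.77 in CTR and 1.95 in ELS mice, where the median of all genes tested was 0.00468 and -0.0352.

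Tnfaip3, which encodes A20 itself, had 3.10 CPM in the lowest, 35.7 in the median and 44.3 in the highest P200-CTR-PBS mouse, and 122, 347 and 737 CPM in the P200-CTR-LPS mice. In P200-ELS-PBS mice the lowest, median and highest values were 35.4, 46.6 and 56.2 CPM. The 5 P200-ELS-LPS mice had 91.9, 169, 553.5, 623.5 and 1408 CPM. Every LPS-injected mouse lay above every PBS-injected mouse, and the LPS-injected mice were themselves spread from 91.9 to 1408 CPM. The log2 fold change was 3.57 in CTR (SE 0.466, adjusted p = 4.12e-08), a factor of 11.9, and 3.60 in ELS mice (SE 0.513, adjusted p = 4.08e-07), a factor of 12.1.

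Tnip1 encodes ABIN1, the TNIP protein known for holding back inflammation and cell death. It had 10.2, 16.2 and 21.3 CPM (lowest, median and highest) in P200-CTR-PBS mice and 19.7, 36.6 and 64.8 CPM in P200-CTR-LPS mice. The P200-ELS-PBS mice had 13.1, 16.5 and 25.2 CPM, and the 5 P200-ELS-LPS mice 14.3, 39.1, 50.9, 56.6 and 66.3 CPM. The groups overlapped through the lowest LPS-injected mice, P200_5.3_CTR_LPS and P200_4.2_ELS_LPS. Fitted log2 fold changes were 1.32 in CTR (SE 0.291, adjusted p = 0.000701) and 1.35 in ELS mice (SE 0.325, adjusted p = 0.00245), a factor of 2.5 and 2.56.

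Tnip2 encodes ABIN2, which also stabilises the kinase TPL2. Mouse P200_1.1_CTR_PBS had no Tnip2 count, the other 6 had between 22.1 and 41.9 CPM, and the P200-CTR-LPS mice had 122.8, 178.9 and 243 CPM as lowest, median and highest value. P200-ELS-PBS mice had 25.1, 29.7 and 33.5 CPM, and the 5 P200-ELS-LPS mice had 111, 119, 187, 220.2 and 240.2 CPM. The groups did not overlap in either condition. LPS changed Tnip2 by 2.70 log2 units in CTR (SE 0.402, adjusted p = 8.09e-07) and 2.55 in ELS mice (SE 0.442, adjusted p = 2.07e-05). Without P200_1.1_CTR_PBS the CTR value was 2.48 (adjusted p = 7.05e-11 by the same edgeR test).

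Tnip3 encodes ABIN3, the member of the family known for being induced by endotoxin. It was all but silent without LPS. A single count was found in the 7 P200-CTR-PBS mice, in P200_15.1_CTR_PBS, and 2 counts in the 6 P200-ELS-PBS mice, both in P200_17.1_ELS_PBS. The 7 P200-CTR-LPS mice held 2803 counts together, with 0.429, 18.0 and 40.6 CPM as lowest, median and highest value, and the 5 P200-ELS-LPS mice held 3211 counts, with 5.75, 8.84, 18.22, 52.11 and 128.0 CPM. Every LPS-injected mouse was above every PBS-injected mouse, although P200_5.3_CTR_LPS had only 6 counts. Scaled to library size, the ratio of LPS to PBS counts was 2968 in CTR mice, with an exact 95% counting interval from 532 to 117300, and 2993 in ELS mice, from 828 to 24730. These intervals cover counting error only. The fitted log2 fold changes of 10.53 in CTR (SE 1.22, adjusted p = 1.79e-09) and 11.09 in ELS mice (SE 1.27, adjusted p = 1.9e-09) depend on the prior count and are no bound. Among all 16696 genes tested they ranked 2 in CTR and 1 in ELS mice from the largest increase. This rank rests on the 1 and 2 counts in PBS-injected mice and is a description only, since Tnip3 passed the filter through LPS-injected mice.

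Birc3 encodes cIAP2, the inducible ligase of the cIAP pair. The P200-CTR-PBS mice had 42.6, 50.8 and 129.5 CPM as lowest, median and highest value, with P200_1.1_CTR_PBS at the top, and the P200-CTR-LPS mice had 303, 379 and 448 CPM. P200-ELS-PBS mice had 34.4, 42.0 and 59.6 CPM, and the 5 P200-ELS-LPS mice 187.7, 272, 409.6, 461 and 723 CPM. The groups did not overlap in either condition. On the log2 scale Birc3 rose by 2.64 in CTR (SE 0.26, adjusted p = 1.52e-11) and 3.19 in ELS mice (SE 0.293, adjusted p = 2.51e-12), a factor of 6.22 and 9.1. Its neighbour Birc2, which encodes cIAP1, had 26.9, 51.9 and 61.0 CPM in P200-CTR-PBS and 44.2, 49.4 and 70.2 CPM in P200-CTR-LPS mice. In ELS mice Birc2 had 37.7, 42.0 and 59.4 CPM with PBS, and 25.1, 54.6, 60.4, 64.7 and 70.9 CPM in the 5 mice with LPS. These Birc2 groups overlapped, and the log2 fold changes were 0.08 in CTR (95% confidence interval -0.35 to 0.51) and 0.32 in ELS mice (-0.17 to 0.80).

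Traf1, an adaptor without the ligase ring of the other TRAF proteins, was scarce. In P200-CTR-PBS mice 4 of 7 had no count and the highest, P200_5.2_CTR_PBS, had 1.87 CPM, and the P200-CTR-LPS mice had 0.933, 1.60 and 4.16 CPM as lowest, median and highest value. In P200-ELS-PBS mice 3 of 6 had no count and the highest had 0.281 CPM, and the 5 P200-ELS-LPS mice had 0.0585, 1.11, 2.44, 4.45 and 7.37 CPM. All 12 LPS-injected mice had a Traf1 count, but the groups overlapped in both conditions, in CTR mice through P200_5.2_CTR_PBS and a PBS-injected mouse just above the lowest LPS value, and in ELS mice through P200_4.2_ELS_LPS. The log2 fold change was 2.22 in CTR (SE 1.16, adjusted p = 0.217), which did not pass, and 5.27 in ELS mice (SE 1.48, adjusted p = 0.0111), which did. The difference between these log2 fold changes, tested as an interaction, was 3.05 (SE 1.73, adjusted p = 0.886).

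Traf2, the adaptor that recruits the cIAPs, had 44.0, 53.5 and 90.8 CPM in P200-CTR-PBS and 54.2, 73.2 and 81.8 CPM in P200-CTR-LPS mice. In ELS mice the PBS values were 41.9, 53.7 and 72.5 CPM, and the 5 LPS values were 62.8, 66.9, 72.4, 75.6 and 86.0 CPM. The groups overlapped, and the log2 fold changes were 0.26 in CTR (95% confidence interval -0.11 to 0.64) and 0.39 in ELS mice (-0.03 to 0.815). The chain-removing enzymes were not called either. Cyld had 60.5, 71.7 and 98.5 CPM in P200-CTR-PBS and 52.96, 61.1 and 78.7 CPM in P200-CTR-LPS mice, a log2 fold change of -0.24 (-0.54 to 0.06), and in ELS mice the log2 fold change was -0.25 (-0.60 to 0.09). Otulin had between 0.102 and 6.56 CPM in P200-CTR-PBS and between 1.41 and 6.20 CPM in P200-CTR-LPS mice, and its log2 fold changes were -0.01 in CTR (-0.99 to 0.97) and -0.45 in ELS mice (-1.575 to 0.66). The intervals of Traf2, Cyld and Birc2 lay within 1 log2 unit of 0 in both conditions, while that of Otulin reached past it in ELS mice.

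Groups without overlap, with every LPS-injected mouse above every PBS-injected mouse, were found for 4 of the 10 genes in CTR mice (Tnfaip3, Tnip2, Tnip3 and Birc3), against 4.92% of all genes tested. The same 4 genes did not overlap in ELS mice, against 5.65% of all genes. Tnip3, among these 4, passed the filter through LPS-injected mice. Summed CPM of the microglia markers was between 83198 and 91083 in P200-CTR-PBS and between 69340 and 82959 in P200-CTR-LPS mice, and the 8 astrocyte markers summed to between 301 and 503 CPM and between 487 and 618 CPM. In ELS mice the microglia markers summed to between 82985 and 89361 CPM with PBS and between 73732 and 85177 with LPS, and the astrocyte markers to between 316 and 456 and between 423 and 587 CPM. Slc1a3 made up most of the astrocyte sums, at 356 ± 70.4 CPM with PBS and 550 ± 46.2 CPM with LPS in CTR mice, and 387 ± 53.5 and 515 ± 62.5 CPM in ELS mice. Aldoc, the next highest, averaged 3.48 and 4.90 CPM in CTR mice, and the other markers moved in both directions. Slc1a3 was the 1 astrocyte marker called in CTR mice, and Gfap and Gja1, at 1.66 and 1.91 CPM with LPS, were called in ELS mice. The part of these markers in the response of the 10 genes was not tested. The 12 monocyte and neutrophil markers summed to between 0.865 and 11.13 CPM in PBS-injected and between 1.64 and 15.4 CPM in LPS-injected mice, and their ranges overlapped. Of these 12 markers, 5 had no count in P200-CTR-PBS, 7 in P200-ELS-PBS, 4 in P200-CTR-LPS and 2 in P200-ELS-LPS mice. S100a8, S100a9, Mmp8, Ngp and Chil3 had no count in P200-ELS-PBS but a count in P200-ELS-LPS mice, and the neutrophil markers Ly6g and Retnlg had none in any P200 group. The part of these cells in the response was not tested.

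**Figure D2:**
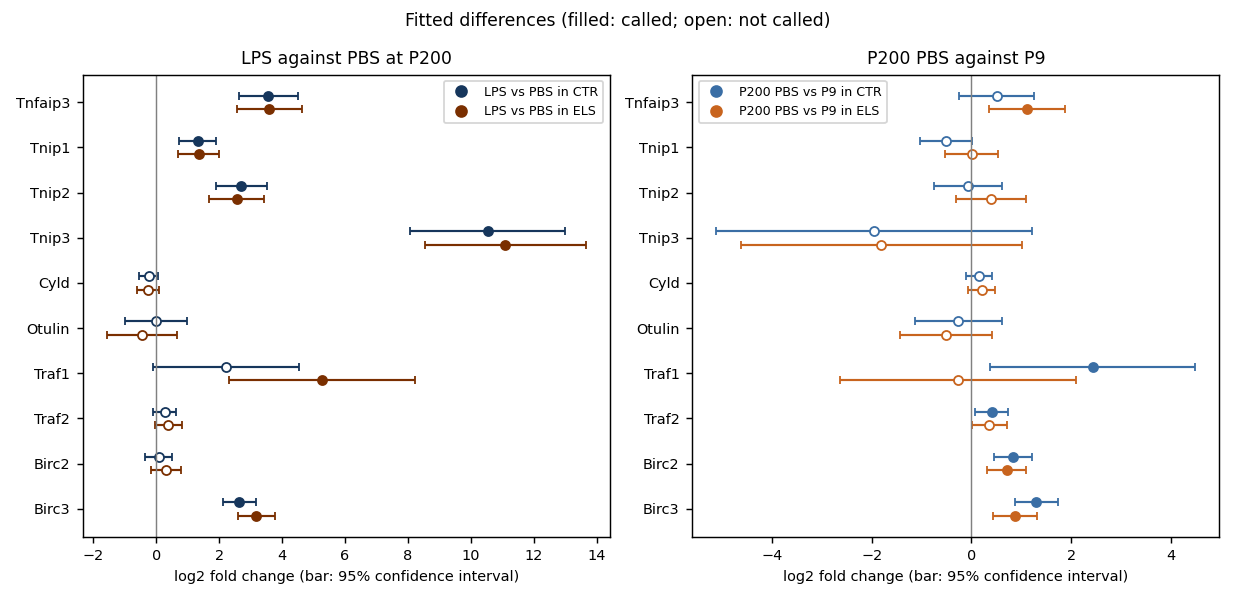
The horizontal axes give the fitted log2 fold change with its 95% confidence interval for each of the 10 genes, for LPS against PBS on the left and P200 PBS against P9 on the right, in CTR and ELS mice. Filled points were called. Tnip3 reaches 10.53 and 11.09 after LPS, whereas the intervals of Cyld, Otulin, Traf2 and Birc2 include 0.

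Among the LPS-injected mice Tnfaip3, Tnip2, Tnip3 and Birc3 shared their lowest mice, and Tnip1 and Traf1 followed in part. Mouse P200_20.1_ELS_LPS had the highest Tnfaip3, Tnip1, Tnip3, Traf1 and Birc3 of the 12 mice. Mouse P200_8.2_CTR_LPS was second for Tnfaip3 and Tnip1 and had the highest Tnip2, at 243 CPM. At the other end, P200_11.2_ELS_LPS, P200_5.3_CTR_LPS, P200_15.2_CTR_LPS and P200_4.2_ELS_LPS had the 4 lowest Tnfaip3 values, from 91.9 to 169 CPM, and also the 4 lowest Tnip2, Tnip3 and Birc3 values. For Tnip1, P200_11.2_ELS_LPS was not low, at 39.1 CPM, and P200_4.2_ELS_LPS was the lowest mouse, as it was for Traf1. Over the 12 mice, log2 CPM of Tnfaip3 had a Pearson r of 0.931 with Birc3 (Spearman rho 0.888), 0.918 with Tnip2 (0.902), 0.85 with Tnip3 (0.895), 0.791 with Tnip1 (0.853) and 0.741 with Traf1 (0.811). Without the 2 mice farthest from the median of Tnfaip3 these r values were 0.937, 0.855, 0.899, 0.92 and 0.865. In the 7 CTR mice alone they were 0.91, 0.96, 0.875, 0.976 and 0.802. They describe 12 libraries that share the injection and their normalization, and no test was applied.

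For the members that were not called after LPS in either condition the r values were lower. Over the same 12 mice the r of Tnfaip3 was 0.6 with Traf2, 0.479 with Cyld, 0.476 with Birc2 and -0.455 with Otulin, and without the 2 farthest mice it was 0.234, 0.153, 0.47 and -0.599. In the 7 CTR mice alone it was 0.546, -0.284, -0.368 and -0.355, so that the sign turned for Cyld and Birc2. Mouse P200_11.2_ELS_LPS was the lowest of the 12 for Cyld at 26.9 CPM and Birc2 at 25.1 CPM as well as for Tnfaip3 and Birc3. The r of Tnfaip3 was 0.149 with the log10 total count, 0.252 with the log10 summed CPM of monocyte and neutrophil markers and -0.558 with that of the microglia markers, and in the 7 CTR mice alone these were 0.448, -0.585 and -0.287. The part of these in the order of the mice was not tested.

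**Figure D3:**
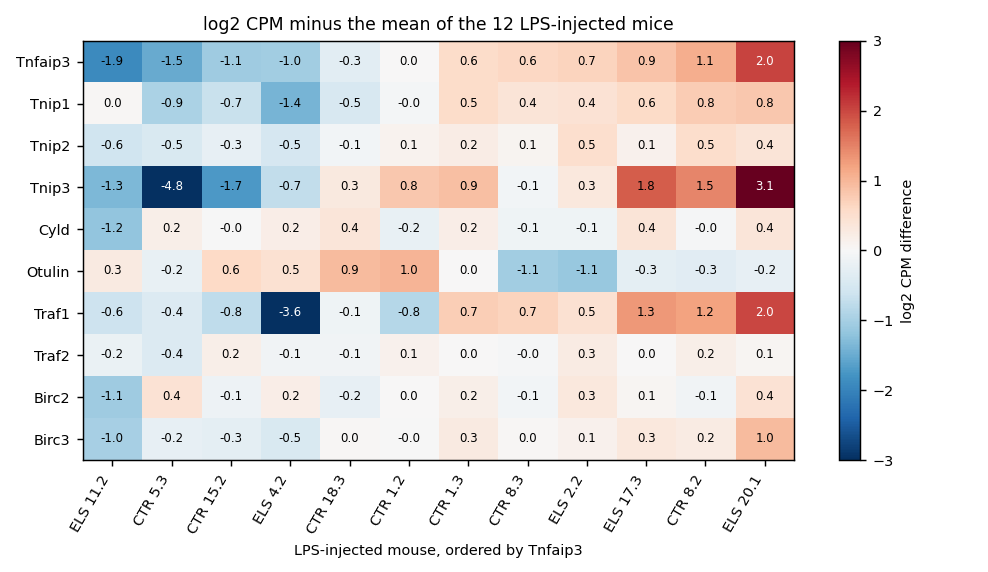
The colours and printed values give log2 CPM minus the mean of the 12 LPS-injected mice, with a row per gene and a column per mouse (condition and the number in its label), ordered from the lowest to the highest Tnfaip3. Tnip2, Tnip3 and Birc3 run mostly from negative on the left to positive on the right with Tnfaip3, while Cyld, Otulin and Birc2 do not follow that order.

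The other genes of the pathway were read as lists of receptors and adaptors, ubiquitin assembly factors, kinases, other brakes and NF-kB target genes. Of 42 tested genes in the 4 pathway lists, 10 rose and 2 fell after LPS in CTR mice, and 9 rose and 1 fell in ELS mice, with median log2 fold changes of 0.233 and 0.137. Of all genes tested, 8.73% rose and 6.2% fell in CTR and 7.4% rose and 4.94% fell in ELS mice, and the list counts below are read beside these shares. Among 12 receptors and adaptors, 6 rose and 1 fell in CTR and 4 rose and 1 fell in ELS mice. Cd40, a TNF family receptor, had the largest change, a log2 fold change of 6.47 in CTR (adjusted p = 4.77e-07) and 7.26 in ELS mice (adjusted p = 5.87e-07). Tradd, the TNF receptor death domain adaptor, had the smallest in CTR mice, -0.15. Tlr4, the LPS receptor, was the 1 gene of this list that fell, by 0.96 on the log2 scale in CTR (adjusted p = 0.00198) and by 1.32 in ELS mice (adjusted p = 0.00026), and was named after its values were seen.

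Of 8 tested ubiquitin assembly factors, 1 rose in CTR mice, the conjugating enzyme Ube2d3 (log2 fold change 0.761, adjusted p = 0.0174), and none in ELS mice. Rnf31, the catalytic subunit of the linear ubiquitin ligase, had the largest value of that list, 1.22 in CTR (adjusted p = 0.13) and 0.721 in ELS mice (adjusted p = 0.507). Of 11 kinases and their scaffolds, 1 rose in both conditions, Tank, which binds TBK1 (1.35 in CTR, adjusted p = 7.23e-05, and 1.21 in ELS mice, adjusted p = 0.00189). Ikbke had the largest value of this list, 1.78 in CTR (adjusted p = 0.44) and 2.79 in ELS mice (adjusted p = 0.238), and did not pass. A single call in lists of 8 and 11 genes is close to the share of all genes that rose. Among 11 other brakes, 2 rose and 1 fell in CTR mice and 4 rose in ELS mice. Nfkbia, which encodes the NF-kB inhibitor IkBα, rose by a log2 fold change of 3.56 in CTR (adjusted p = 6.65e-21) and 4.07 in ELS mice (adjusted p = 3.82e-21), and Zfp36, which encodes a factor that destabilises cytokine mRNA, by 3.54 and 3.68 (adjusted p = 1.74e-15 and 1.85e-14). Itch, a ubiquitin ligase that acts with A20, was the gene that fell in CTR mice, by 0.45 on the log2 scale (adjusted p = 0.0382), with a value of -0.488 in ELS mice that did not pass (adjusted p = 0.0572), and Usp18 and N4bp1 rose in ELS mice, by 1.67 and 1.22 on the same scale (adjusted p = 0.00255 and 0.0114), and these 3 were named after their values were seen.

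All 15 NF-kB target genes rose in CTR mice and 14 of 15 in ELS mice, with median log2 fold changes of 3.56 and 4.07. Ptgs2, the inducible cyclooxygenase, had the largest value in CTR mice at 9.87 (adjusted p = 6.11e-12). The chemokine gene Cxcl2, with the largest fitted value in ELS mice, had no count in any PBS-injected mouse and averaged 2.59 ± 2.496 CPM in CTR and 6.43 ± 6.89 CPM in ELS mice with LPS. Nfkb1, a subunit gene of NF-kB, had the smallest in both, 0.551 in CTR (adjusted p = 0.00563) and 0.321 in ELS mice (adjusted p = 0.222). Summed over the 15 genes, expression was between 1277 and 1779 CPM in P200-CTR-PBS and between 8322 and 21587 CPM in P200-CTR-LPS mice, with the lowest LPS value in P200_5.3_CTR_LPS and the highest in P200_8.2_CTR_LPS. In ELS mice the sums were between 1067 and 1633 CPM with PBS and between 10474 and 37027 CPM with LPS, lowest in P200_4.2_ELS_LPS and highest in P200_20.1_ELS_LPS. These list genes and the adjusted p-values come from the same edgeR fit over all genes.

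**Figure D4:**
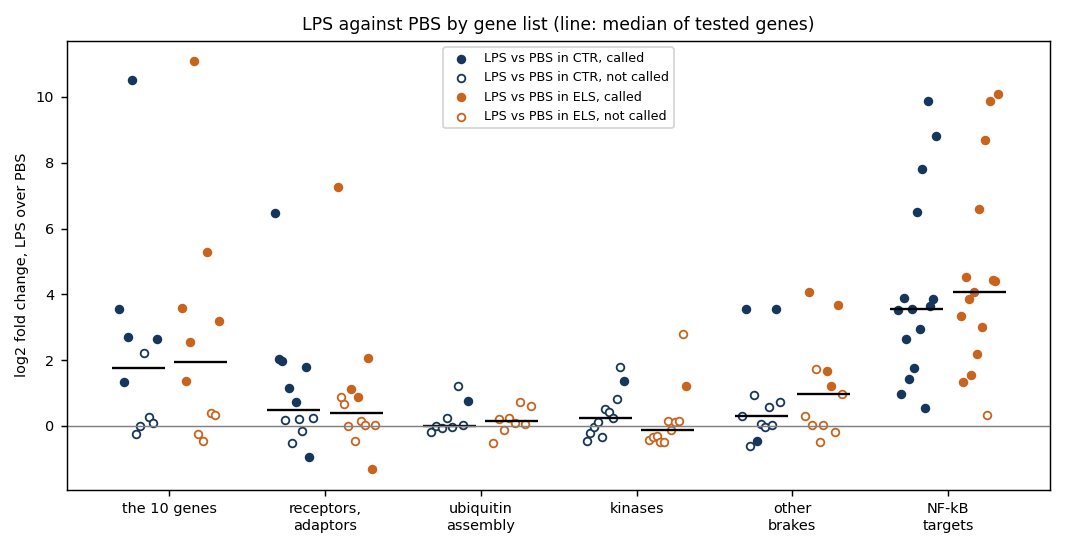
The vertical axis gives the log2 fold change of LPS over PBS, with a point per tested gene and a line for the median of each list, in CTR and ELS mice, and filled points were called. The 10 genes have medians of 1.77 and 1.95, the NF-kB targets 3.56 and 4.07, and the kinases 0.244 and -0.141.

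For the 3 members with the largest LPS change in CTR mice, the non-member genes with the most similar pattern were looked up by Pearson r of log2 CPM. Over the 25 P200 mice Tnip3 was most like Cd14 (r = 0.988), Fas (0.982) and Gm47079 (0.979). Tnfaip3 was most like Dusp16 (0.965), Clic4 (0.964) and Rabgef1 (0.955), and Tnip2 most like Tirap (0.983), Gpr35 (0.977) and Polr3d (0.977). These 25 mice share the split between PBS and LPS, which sets most of these values. After subtraction of group means, over all 50 mice, Tnfaip3 was most like Zfp275 (0.842), Zfp518b (0.822) and the NF-kB subunit gene Rel (0.821), and these fell to 0.613, 0.595 and 0.633 over the 47 mice left without the 3 libraries with fewer than 16000 detected genes. Tnip2 was most like Ankrd27 (0.948), Cd2bp2 (0.945) and Gle1 (0.934), which fell to 0.769, 0.704 and 0.668 without those libraries. Tnip3 was most like Gpr84 (0.643), Sdc4 (0.61) and Cd83 (0.609), which were 0.647, 0.613 and 0.642 without them.

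The next comparisons asked whether early-life stress changed the 10 genes. No member was called between ELS and CTR mice at P9, with PBS or with LPS, by edgeR's quasi-likelihood test. None had an unadjusted p under 0.05 in any of these 3 comparisons, and DESeq2, edgeR's likelihood-ratio test and limma voom also called 0 members in each. Of all genes tested, 0.0% were called at P9, 0.168% with PBS and 0.0% with LPS. Without a call at P9 or with LPS, 914 and 798 of the 16696 genes had an unadjusted p under 0.05, and DESeq2 called 0 and 2 genes.

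At P9, Tnfaip3 had 12.1, 24.0 and 35.4 CPM as lowest, median and highest value in CTR and 0.717, 22.8 and 34.9 CPM in ELS mice, where the lowest was P9_19.3_ELS. The log2 fold change of ELS over CTR was -0.08 (95% confidence interval -0.72 to 0.57). Tnip1 had the smallest p of the members at P9 (unadjusted p = 0.0985, edgeR), with a log2 fold change of -0.36 (-0.79 to 0.07). Its values were 11.4, 24.6 and 33.8 CPM in CTR and 7.25, 18.8 and 26.7 CPM in ELS mice, and the groups overlapped. The other members with more than 1 CPM on average lay between -0.31 for Tnip2 and 0.31 for Otulin, and the Otulin value was -0.0159 without P9_19.2_ELS. Tnip3 and Traf1 had 11 and 21 counts in all CTR and 17 and 23 counts in all ELS mice at P9, too few for a comparison at this depth.

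With PBS at P200, Tnfaip3 averaged 32.4 ± 13.8 CPM (SD, n = 7) in CTR and 47.0 ± 7.70 CPM (n = 6) in ELS mice, and the log2 fold change was 0.54 (95% confidence interval -0.35 to 1.42). Without P200_1.1_CTR_PBS the CTR mean was 37.3 ± 5.47 CPM (n = 6) and the log2 fold change 0.335. Birc3 averaged 60.4 ± 30.8 CPM in CTR and 45.1 ± 9.87 CPM in ELS mice, a log2 fold change of -0.42 (-0.94 to 0.09), which was -0.118 without P200_1.1_CTR_PBS. Traf1 had the smallest p (unadjusted p = 0.0587, adjusted p = 0.546, edgeR) and a log2 fold change of -2.52 (-5.13 to 0.10), from 76 counts in 3 CTR mice and 11 counts in 3 ELS mice. Tnip3, with 1 and 2 counts in these groups, could not be compared at this depth. The remaining members lay between -0.18 for Birc2 and 0.16 for Tnip1. Ripk1, the kinase adaptor that the cIAPs ubiquitinate, was the 1 of 42 tested pathway genes called between ELS-PBS and CTR-PBS mice. It averaged 24.7 ± 6.61 CPM in ELS and 9.17 ± 3.69 CPM in CTR mice, a log2 fold change of 1.43 (adjusted p = 0.0466), and was named after its values were seen. Over 50 fits that each left out 1 mouse, between 1 and 83 of all genes were called in this comparison. No gene was called by limma voom or in a fit of these groups alone, so the call of Ripk1 was lost there.

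With LPS at P200, Tnip3 averaged 42.6 ± 51.16 CPM (SD, n = 5) in ELS and 18.7 ± 14.0 CPM (n = 7) in CTR mice, a log2 fold change of 1.19 (95% confidence interval -0.29 to 2.66). Tnfaip3 averaged 569 ± 523 CPM in ELS and 384 ± 220.2 CPM in CTR mice, a log2 fold change of 0.57 (-0.35 to 1.48). In both genes P200_20.1_ELS_LPS was the highest mouse and the groups overlapped. Leaving out each mouse in turn gave log2 fold changes between -0.0968 and 0.841 for Tnfaip3 and between 0.183 and 1.5 for Tnip3, with no call, and the lowest Tnip3 value was that without P200_20.1_ELS_LPS. Birc3 averaged 411 ± 205.5 CPM in ELS and 376 ± 56.1 CPM in CTR mice, a log2 fold change of 0.13 (-0.41 to 0.66). Tnip2 averaged 175 CPM in both conditions, with SDs of 58.5 and 39.1 CPM, and its log2 fold change was 0.00 (-0.82 to 0.83). The intervals of Tnip1, Tnip2, Cyld, Traf2, Birc2 and Birc3 lay within 1 log2 unit of 0, while those of Tnfaip3, Tnip3, Otulin and Traf1 did not. These intervals take each mouse as independent, although condition was assigned by litter, and may be too narrow.

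Whether the LPS response differed between conditions was tested as an interaction, and 0 members were called, as were 0.0% of all genes, by edgeR's quasi-likelihood test. No member had an unadjusted p under 0.05, 980 of all genes did, and DESeq2 called 0 members and 15 genes. The interaction was 0.03 log2 units for Tnfaip3 (95% confidence interval -1.26 to 1.31), 0.03 for Tnip1 (-0.83 to 0.90), -0.15 for Tnip2 (-1.29 to 1.00) and 0.55 for Birc3 (-0.19 to 1.29). With 12 LPS-injected mice these intervals were wide for every induced member. Without P200_1.1_CTR_PBS the interaction was 0.244 for Birc3, 0.076 for Tnip2 and 0.232 for Tnfaip3, and over the 50 fits that each left out 1 mouse it ran from -0.634 to 0.303 for Tnfaip3 and from -0.141 to 0.263 for Tnip1, with no call.

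**Figure D5:**
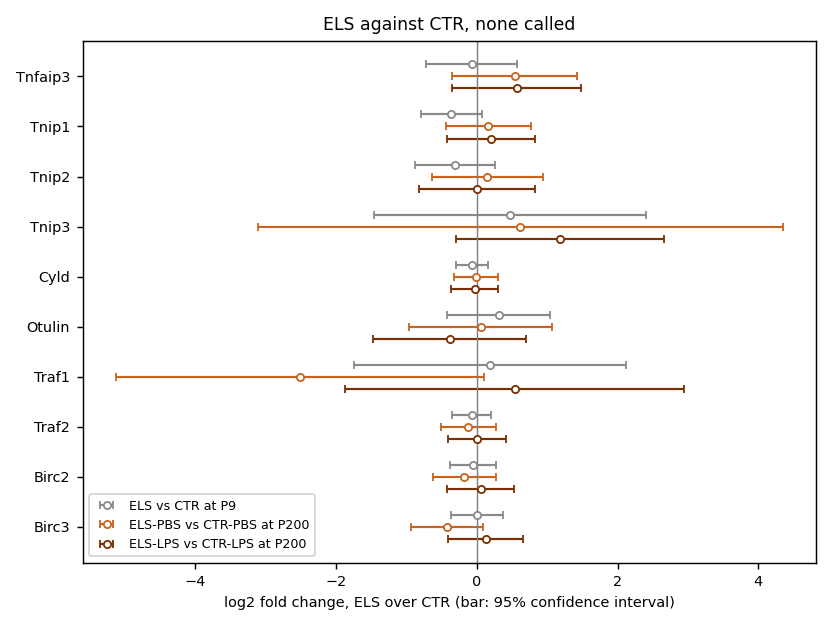
The horizontal axis gives the log2 fold change of ELS over CTR with its 95% confidence interval for the 10 genes at P9 and, at P200, with PBS and with LPS. Every interval includes 0, and those of Tnip3 and Traf1, which have few counts outside the LPS-injected mice, are the widest.

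The last comparison set P200 PBS mice against P9 mice. The cIAP genes were higher in adult microglia in both conditions, and no member was lower. In CTR mice 4 of the 10 genes were higher (Birc3, Birc2, Traf1 and Traf2) and 0 lower, so 4 were called where 44.1% of all genes tested were, 2911 higher and 4445 lower. In ELS mice 3 were higher (Tnfaip3, Birc3 and Birc2) and 0 lower, where 42.2% of all genes were called, 2863 higher and 4182 lower. Neither share of members stood above that of all genes. The median log2 fold change over the 10 genes was 0.279 in CTR and 0.282 in ELS mice, and -0.0903 and -0.0143 over all genes tested.

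Birc3 had 15.6, 25.5 and 35.2 CPM as lowest, median and highest value in P9-CTR and 6.09, 25.1 and 32.5 CPM in P9-ELS mice. Every P200-CTR-PBS mouse (42.6 CPM or more) lay above every P9-CTR mouse, and every P200-ELS-PBS mouse (34.4 CPM or more) above every P9-ELS mouse. The log2 fold change was 1.299 in CTR (SE 0.214, adjusted p = 1.95e-06) and 0.88 in ELS mice (SE 0.221, adjusted p = 0.00112), and the CTR value was 0.995 without P200_1.1_CTR_PBS. Birc2 had 20.9, 28.2 and 42.6 CPM in P9-CTR and 8.96, 28.5 and 39.1 CPM in P9-ELS mice. It rose with age by 0.83 (SE 0.188, adjusted p = 0.000306) and 0.71 (SE 0.194, adjusted p = 0.00251), and in CTR mice the groups overlapped only through P200_1.1_CTR_PBS, which was at 26.9 CPM against 50.8 CPM or more in the other 6. Tnfaip3 in ELS mice went from 21.5 ± 8.72 CPM (SD, n = 13) to 47.0 ± 7.70 CPM (n = 6). The groups only just did not overlap, at 34.95 CPM in the highest P9-ELS and 35.41 CPM in the lowest P200-ELS-PBS mouse. The share of all genes without overlap between the ages was not computed, so this and the Birc3 separation are descriptions only. The Tnfaip3 log2 fold change in ELS mice was 1.12 (SE 0.378, adjusted p = 0.0142), and this call was lost with counts summed per nest (adjusted p = 0.151) and by limma voom. In CTR mice the value was 0.50 (SE 0.374, adjusted p = 0.284), and 0.708 without P200_1.1_CTR_PBS (adjusted p = 0.101).

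The 2 adaptors were near the threshold. Mean Traf2 was 45.5 ± 10.2 CPM in P9-CTR and 60.4 ± 17.06 CPM in P200-CTR-PBS mice, a log2 fold change of 0.41 (SE 0.165, adjusted p = 0.0392), and was no longer called without P200_1.1_CTR_PBS (0.283, adjusted p = 0.172) or without any 1 of 4 other mice, P200_18.1_CTR_PBS, P9_51.2_CTR, P9_51.3_CTR and P9_52.1_CTR. In ELS mice it averaged 43.3 ± 13.6 and 55.5 ± 10.8 CPM, a log2 fold change of 0.36 (SE 0.17, adjusted p = 0.0836). Traf1 in CTR mice had 21 counts in 4 of 12 P9 mice and 76 counts in 3 of 7 P200 mice, 48 of them in P200_5.2_CTR_PBS. Its log2 fold change of 2.43 (SE 1.03, adjusted p = 0.0492) became 1.36 without that mouse (adjusted p = 0.322, the highest over 50 fits that each left out 1 mouse). For Tnip1, Tnip2, Tnip3, Cyld and Otulin the intervals of the age difference included 0 in both conditions, although in CTR mice that of Tnip1 ran from -1.04 to 0.0032. For a different age effect in ELS and CTR mice, edgeR's test of the interaction called 0 members, against 0.0299% of all genes. There were 0 members at an unadjusted p under 0.05 and 0 called by DESeq2. The 95% confidence intervals ran from -0.33 to 0.44 log2 units for Cyld and from -5.94 to 0.53 for Traf1. Among others, those of Tnfaip3 (-0.48 to 1.705) and Tnip2 (-0.52 to 1.435) reached past 1 log2 unit. Marker levels moved with age in the same libraries: the 8 border macrophage markers summed to between 477 and 922 CPM at P9 and between 2.84 and 10.6 CPM in P200 PBS mice, the 8 neuron markers to between 40.2 and 197 CPM and between 2.54 and 11.9 CPM, and the microglia markers to between 39286 and 71875 CPM and between 82985 and 91083 CPM. Their part in the age differences was not tested.

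Of the 42 tested pathway genes outside the 10, 12 were higher and 4 lower at P200 in CTR mice, and 10 were higher and 4 lower in ELS mice, so fewer were called, in proportion, than the 44.1% and 42.2% of all genes. Usp18, which encodes a protease for the ubiquitin-like ISG15, had the largest value of the other brakes in CTR mice, a log2 fold change of 1.97 (adjusted p = 7.13e-07, edgeR). Of the NF-kB target genes 6 were higher and 1 lower in CTR, and 7 higher and 1 lower in ELS mice, with Ccl4 the largest in both at 3.29 and 2.41 (adjusted p = 2.25e-13 and 1.65e-09).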

How the data were processed

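Poly-A RNA of sorted microglia from 50 mice was sequenced, and the deposited values are the authors' raw counts per gene. According to the submitters' processing notes and the methods, reads were converted with bcl2fastq 2.20, trimmed with cutadapt 2.10, mapped to GRCm39 with STAR, and unique exonic reads were counted with HTSeq 0.11.0. The annotation release and strand setting are not given in the sources used here. Of 53700 genes, 52610 were found in GENCODE vM39, which gave positions and exon lengths.

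Groups followed the labels. TMM normalization was done in edgeR 4.0.16 under R 4.3.3. The 16696 genes that reached 1 CPM, by library totals before TMM scaling, in 3 or more of the 50 mice were kept. Then 9 contrasts of 6 group means were tested with the quasi-likelihood test and Benjamini-Hochberg adjustment over all genes. A call needed an adjusted p under 0.05 and a log2 fold change beyond 0.1 in size. The prior count in log2 CPM was 2. Total counts were 5152838 to 42231258 per mouse. Tested on simulated data for LPS against PBS in CTR mice (14961 genes), the fit recovered 98 of 100 genes changed by 2 log2 units and 22 of 100 changed by 1, with 2 false calls. The simulation gave every gene the same dispersion, treated mice as independent without a nest effect, and changed only genes above a minimum level. These rates may therefore not carry over to scarce genes such as Traf1, or to libraries with few detected genes. Where mice share a nest, p-values may be too small and intervals too narrow.

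The 10 genes, the lists and the tests were chosen with earlier results of these data known. Named beside the 10 genes are list genes with the 2 largest or the smallest absolute log2 fold change and the 3 most similar genes of 3 members. Alternatives were the likelihood-ratio and robust tests, DESeq2 1.42.0, its size factors, other filters and thresholds, a fit of only the compared groups, sums per nest, a nest block, limma 3.58.1 voom, and leaving out each mouse. Promoters came from RefSeq (GRCm38.p6). Python 3.11.15, numpy 2.4.6, pandas 2.3.3, scipy 1.17.1 and matplotlib were used.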

Additional observations from a re-analysis of the deposited data

Results flagged for a closer look

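In the 4 P200 groups, the gap between the most extreme mouse and its nearest neighbour was compared with the range of the group for each of the 10 genes. Of 40 such checks 5 passed the 95% critical value of Dixon. Chance alone passes about 1 in 20 only for independent, normally spread values. These checks share mice and include genes with mostly 0 counts, so that rate is no yardstick here. In P200-CTR-PBS mice, P200_1.1_CTR_PBS stood apart with low Tnfaip3 (3.10 CPM), low Birc2 (26.9 CPM) and high Birc3 (129.5 CPM), and its library had 12854 detected genes. Without it the other 6 mice had 31.0 to 44.3 CPM for Tnfaip3, 50.8 to 61.0 for Birc2 and 42.6 to 55.09 for Birc3. The remaining flags were both for Tnip3, in P200_15.1_CTR_PBS (0.0713 CPM, from 1 count) and P200_17.1_ELS_PBS (0.0804 CPM, from 2 counts), in groups whose other mice had no count. In such a group the gap equals the range, so any mouse with a count passes.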

How the results depend on the processing

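The LPS calls did not depend on the settings tried. In CTR mice 5 members were called under every alternative except limma voom, which added Traf1, and 6 in ELS mice under every alternative, also in each of 50 fits that left out 1 mouse. The age calls were less stable. In CTR mice the count of 4 became 2 with an absolute log2 fold change above 1, with counts summed per nest and without a filter on low counts, and ranged from 2 to 4 over the fits that left out 1 mouse, in which Traf1 was lost 26 times and Traf2 5 times. DESeq2, the likelihood-ratio test and voom each called 3. Among the other alternatives Traf1 was lost in 6 of 10, Traf2 in 4 of 11 and Birc2 in 1, and Tnip1 was called lower in 1, with the groups compared alone (adjusted p = 0.0343, edgeR). In ELS mice the count of 3 became 1 with an absolute log2 fold change above 1 (Tnfaip3). Tnfaip3 was lost with sums per nest and with voom, and Traf2 was gained with voom and without the 3 libraries under 16000 detected genes, as also without P9_19.3_ELS or P9_9.2_ELS. Between ELS and CTR and in both interactions no member was called under any alternative. No log2 fold change of a called member reversed, and DESeq2 scaling moved none of 60 group means by more than 1 SD.

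Nest numbers shared by PBS and LPS mice were not used to pair the samples in the main fit. Deviations of same-nest mice correlated between -0.0411 and 0.0841, and those of different nests between -0.117 and 0.129. The nest correlation estimated by limma was 0.0778. An effect of the nest was not tested by these values. A replicate block of the nest number gave 5 members in CTR and 6 in ELS mice.

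Counts over all genes moved more. Between ELS-PBS and CTR-PBS mice 28 genes were called in the main analysis, 178 by DESeq2, 215 by the likelihood-ratio test, 6 with DESeq2 size factors, 7 with counts summed per nest, 2 without a filter, and 0 by voom or with these groups alone. At P9 the likelihood-ratio test called 1 gene in place of 0, and with LPS 10, where DESeq2 called 2. The treatment interaction gave 66 and 15 genes by these tools in place of 0, and the age interaction 29 and 20 in place of 5, 3 with a filter of 5 mice, and 0 by voom, per nest, with the groups alone or without the 3 libraries under 16000 detected genes. Without these libraries 3536 genes in place of 2059 were called for LPS in ELS mice. With an absolute log2 fold change above 1 the counts were 1606 and 1313 for LPS and 4416 and 4368 for age in CTR and ELS mice. The causes were not tested. Depth limits Traf1 and Tnip3 outside LPS-injected mice.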
